A study of Mus musculus with 384 samples.

Results

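The genes for interleukin receptor chains were examined for accessible chromatin in single cells of a mouse breast tumor. They were chosen by name as the protein-coding genes of the GENCODE vM1 annotation whose symbol is Il, a number and then r. This gave 42 genes of the 22350 protein-coding genes on chromosomes 1 to 19 and X. The name also takes in genes that are no signalling receptor of an interleukin. Among them are Il1rn, which encodes a secreted antagonist of the IL-1 receptor, and Il1rapl1 and Il1rapl2, synaptic relatives of an accessory chain. The decoy receptors Il1r2 and Il13ra2 and the soluble binding protein Il22ra2 are others.

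The tumor came from an MMTV-PyMT mouse killed at 3 months of age, in which the mouse mammary tumor virus promoter drives an oncogene of polyoma virus in the mammary epithelium. Its cells were fixed, stained for the epithelial protein EpCAM and the leukocyte protein CD45, and measured by Pi-ATAC, in which a transposase cuts and tags open chromatin of cells that are then sorted one per well. The 384 wells, in 4 plates of 96, form 1 group in the labels. No stain result is given for a well, so EpCAM+ cells and CD45+ cells were not compared. The data are 1 list of 50000 windows of 500 bp, each centred on a summit of accessibility called over all cells together in mouse build mm9. The list has no replicates, and no score or read count goes with a window. The depth behind each window is therefore unknown, a gene without a window is only one that fell outside the list, and every count below is a description with no test. Fewer cells of a type and less open chromatin per cell cannot be told apart.

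Interleukins are secreted proteins by which leukocytes, epithelia and stroma signal to each other. Most of their receptors are assembled from a private chain, which binds the ligand, and a chain shared by several cytokines, such as the common gamma chain (Il2rg) or gp130 (Il6st). Receptors of these families signal through Janus kinases and STAT transcription factors, whereas IL-1 and IL-17 receptors recruit adaptor proteins and kinases that lead to NF-kB. Many private chains are made by few kinds of leukocyte, whereas Il4ra, Il13ra1, Il17ra and Il10rb are known from many tissues, epithelium included.

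A gene was counted as having a promoter window when the centre of a window lay within 1 kb of any of its annotated transcription start sites. Of the 42 genes, 20 (47.6%, exact 95% binomial interval 32.0 to 63.6) had one, beside 43.5% of all protein-coding genes. The share of the receptor genes was thus near the background. They had few CpG dinucleotides at their starts, with a median of 11.5 CpG in the 500 bp around the 5′ end of the gene beside 23.0 over all protein-coding genes. Promoters rich in CpG are open in most cell types.

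These 4 stretches of promoter windows show how widely the receptor genes themselves range in CpG content, with each CG in capitals. They were chosen after the values had been seen, are read in the direction of the gene and lie just upstream of a start site, outside annotated untranslated sequence.
Il2rb, chr15:78325497-78325646 (minus strand): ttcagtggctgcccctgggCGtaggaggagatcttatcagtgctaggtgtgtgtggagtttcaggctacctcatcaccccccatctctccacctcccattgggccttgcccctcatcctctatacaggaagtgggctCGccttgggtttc
Il2rg, chrX:98463610-98463744 (minus strand): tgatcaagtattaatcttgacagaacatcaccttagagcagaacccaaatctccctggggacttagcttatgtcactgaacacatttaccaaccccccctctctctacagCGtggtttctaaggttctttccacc
Il6ra, chr3:89717085-89717234 (minus strand): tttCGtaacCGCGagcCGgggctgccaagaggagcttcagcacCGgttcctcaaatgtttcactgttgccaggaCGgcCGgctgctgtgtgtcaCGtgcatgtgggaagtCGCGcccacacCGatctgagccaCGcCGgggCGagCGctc
Il13ra1, chrX:33651955-33652104 (plus strand): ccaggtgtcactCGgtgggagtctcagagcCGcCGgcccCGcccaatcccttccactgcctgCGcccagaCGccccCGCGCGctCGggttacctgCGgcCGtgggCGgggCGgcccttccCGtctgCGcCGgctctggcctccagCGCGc
In the stretch of Il2rb, the beta chain shared by the IL-2 and IL-15 receptors, 2 CG were found in 150 bases. In that of Il2rg, the common gamma chain, there was 1 in 135 bases. Il6ra, the alpha chain for IL-6, held 15 and Il13ra1, which signals with Il4ra, held 19, each in 150 bases.

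When the genes were split by CpG count into 3 classes of similar size, the low class (at most 10 CpG) held 19 of the 42 receptor genes, and 6 of these had a promoter window (31.6%, interval 12.6 to 56.6). The share in all protein-coding genes of that class was 12.2%. Those 6 were Il2ra, Il2rb, Il2rg, Il15ra, Il1rn and Il20rb. In the middle class 7 of 15 (46.7%) had one beside 49.5%, and in the high class (over 36 CpG) 7 of 8 (87.5%) beside 69.8%. The high-CpG gene without a promoter window was Il17rd, also named Sef, an inhibitor of fibroblast growth factor signalling. The windows of Il1rn and Il20rb lie at start sites inside the gene, far from the 5′ end where CpG was counted. With windows at the 5′ end only, 4 of the 19 (21.1%) remained, beside 7.38% of all protein-coding genes of the class. Where CpG was counted instead at the start site of each gene with most CpG, the limit of the low class rose to 13 CpG. Under that count and limit 7 of 23 low-class receptor genes (30.4%) had a promoter window, now with Il21r and Il17rc and without Il15ra, beside 8.24% of all genes of that class. No interval was calculated for either alternative count, so their counting error is not shown.

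**Figure D1:**
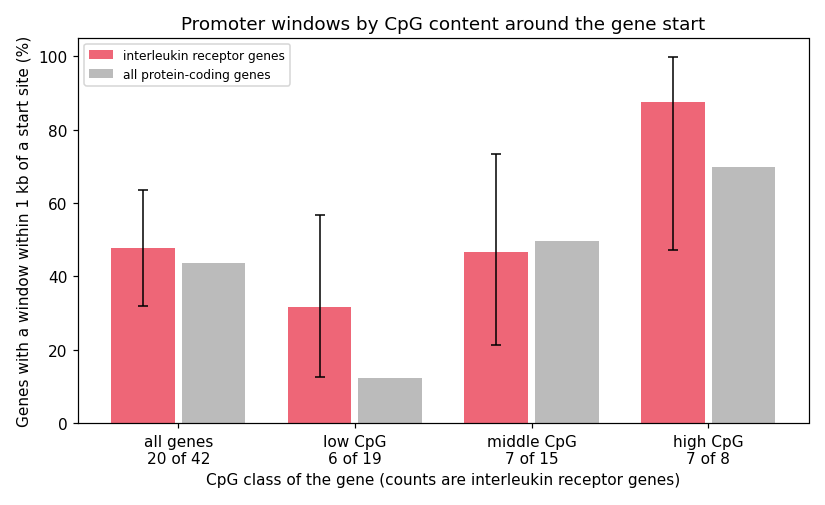
Percentage of genes that have a promoter window (y axis, centre at most 1 kb from a start site) for all genes and for 3 classes of CpG count around the gene start (x axis). Red bars are the interleukin receptor genes with exact 95% binomial intervals, grey bars all protein-coding genes; in the low class the bars stand at 31.6% and 12.2%.

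The counts are given by receptor family, to be read against the same 43.5% of all protein-coding genes, which lies within the exact interval of every family; differences between families were not tested. In the common gamma chain family, 6 of 8 genes had one (75.0%, interval 34.9 to 96.8), and these 6 are all the chains of the receptors for IL-2, IL-15, IL-4 (type I) and IL-21. The centre of the Il2ra window lay 94 bp from a start site of this gene for CD25, the alpha chain that gives the IL-2 receptor its high affinity. Il2rb had windows at 159 and 622 bp and Il2rg at 266 and 792 bp. Both windows of Il2rg also lie inside another annotated gene, Gm20489. Il15ra, the alpha chain for IL-15, had a window at 15 bp. Il4ra, the chain that binds IL-4, had windows at 53 and 831 bp, and Il21r, the receptor for IL-21, at 138 bp. The window of Il2ra (chr2:11564321-11564820) covers the start of its 5′ exon and held 3 CpG. That upstream of Il2rg (chrX:98463610-98464109) held 2, and that upstream of Il2rb (chr15:78325405-78325904) held 10. The Il4ra window at 53 bp (chr7:132695482-132695981) held 35 CpG, and the one at 831 bp, in an intron, held 9. The 2 genes of the family without a promoter window were Il7r and Il9r. The closest window to Il7r, the IL-7 receptor of lymphocytes, lay 25599 bp upstream and the next 45112 bp upstream, both nearest to Il7r among protein-coding genes and both holding a RUNX word. The 4 windows in reach of Il9r were each nearest to another gene.

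In the IL-1 receptor family, the 6 genes clustered on chromosome 1 encode the IL-1 receptor (Il1r1), its decoy (Il1r2), the receptors for IL-36 (Il1rl2) and IL-33 (Il1rl1, or ST2) and both chains of the IL-18 receptor (Il18r1 and Il18rap). None of these 6 had a promoter window, and each had 0 to 2 windows within 50 kb. In the family as a whole, 2 of 10 genes had one (20.0%, interval 2.52 to 55.6). Il1rap, the accessory chain shared by the receptors for IL-1, IL-33 and IL-36, had a window centred 3 bp from a start site. Il1rn had windows at 164 and 980 bp from start sites inside the gene, 8271 and 9475 bp from its 5′ end.

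In the family of IL-6 and IL-12 receptors, 3 of 8 genes had a promoter window. Il6ra had windows at 143 and 557 bp, Il12rb2, the chain that distinguishes the IL-12 receptor, at 2 bp, and Il27ra, the receptor for IL-27, at 36 bp. Il12rb1, shared by the IL-12 and IL-23 receptors, had its closest window at 3318 bp, and Il23r at 19011 bp. Il11ra1 and Il11ra2, alpha chains for IL-11, had none, but they are near copies of each other and reads were kept only when uniquely mapped, so both calls are uncertain.

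Among receptors of the IL-10 family, 4 of 7 genes had a promoter window. Il10ra, the private chain of the IL-10 receptor, had a window at 142 bp, in a coding exon. Il10rb, shared by receptors for IL-10, IL-22 and interferon lambda, had one at 798 bp, which also lies inside Ifnar2. Il28ra, the interferon lambda receptor, had one at 63 bp. The window of Il20rb, a chain for IL-19, IL-20 and IL-24, lay 379 bp upstream of an internal start site and 15800 bp from the 5′ end of the gene, and it was not counted when only protein-coding transcripts were used. Without a promoter window were Il20ra, Il22ra1 and Il22ra2, of which the last encodes a soluble binding protein for IL-22. In the IL-17 family 3 of 5 had one. Il17ra, the chain shared by the receptors of this family, had windows at 44 and 371 bp, Il17rb, the receptor for IL-25, at 56 bp, and Il17rc, the partner of Il17ra for IL-17A, at 935 bp from a start site inside the gene.

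The remaining chains, for IL-3, IL-5 and IL-13, had promoter windows in 2 of 4 genes. Il13ra1 had windows at 3 and 757 bp and Il3ra, the alpha chain for IL-3, at 778 bp. Il13ra2, the decoy for IL-13, and Il5ra, the alpha chain for IL-5 of eosinophils, had none. Just inside the limit of 1 kb were Il3ra, Il10rb and Il17rc, and just outside it Il1rapl2 at 2071 bp. When the limit was 500 bp, those 3 genes dropped out and 17 of 42 remained (40.5% beside 40.1% of all protein-coding genes). With 1 start site per gene, taken at its 5′ end, 16 remained, and Il1rn, Il10rb, Il17rc and Il20rb dropped out. The share of all protein-coding genes under that rule is not given, so the 16 has no background beside it.

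**Figure D2:**
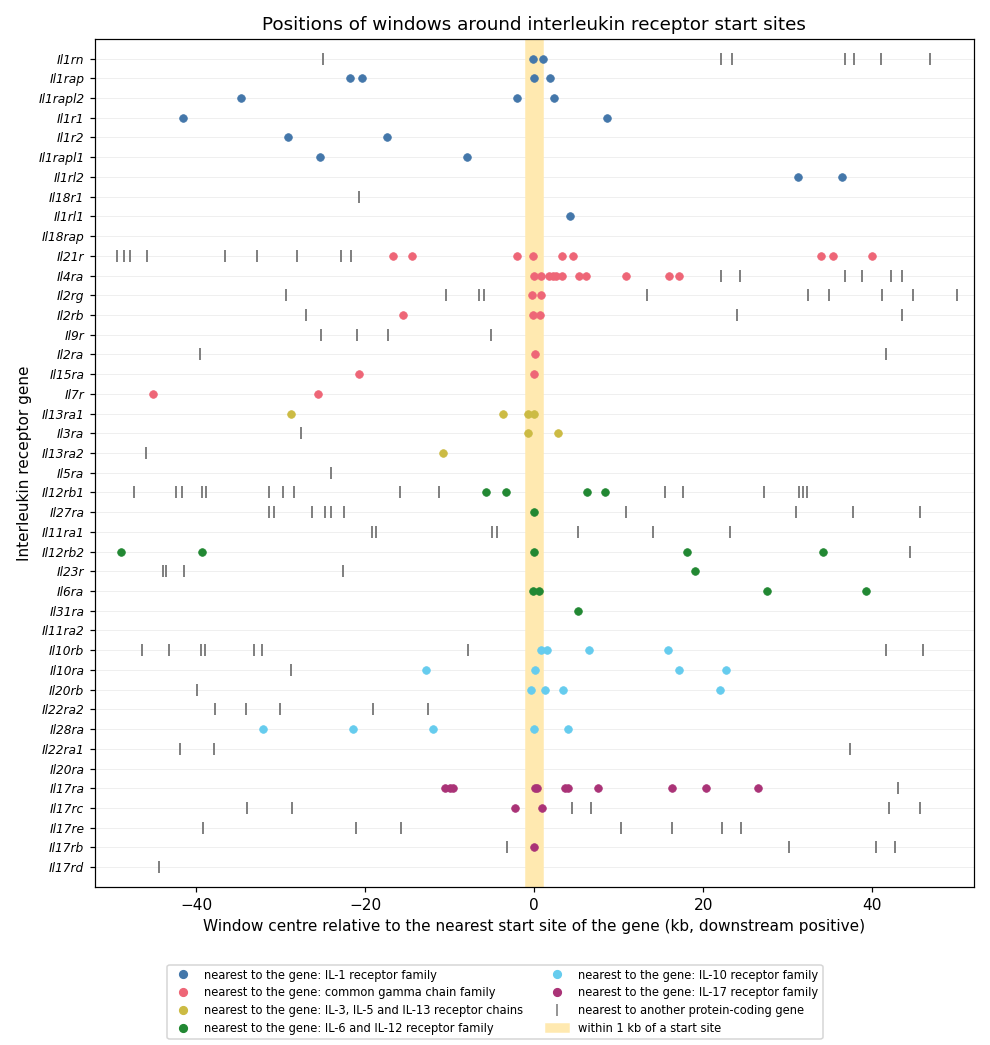
Distance of each window centre from the nearest start site of the receptor gene (kb, x axis, downstream positive) for the 42 genes (y axis, grouped by family). Dots are windows for which the receptor gene is the nearest protein-coding gene, bars windows nearer to another gene, and the shaded strip is 1 kb to either side; 20 genes have a window in the strip.

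Because receptors work as complexes, the chains were read together in 26 textbook combinations, which share chains and so are not independent. In 9 of them every chain had a promoter window: the receptors for IL-2, IL-15, IL-4 (type I with Il2rg, and type II with Il13ra1, which also binds IL-13), IL-21, IL-10, interferon lambda, IL-17A and IL-25. In 12 some chains had one. For IL-1, IL-33 and IL-36 the shared Il1rap had a promoter window and the private chain did not, and the same held for Il2rg with Il7r and with Il9r. For IL-6 and IL-27 it was the private chain that had one, since Il6st had no promoter window, although 6 windows lay within 50 kb of it. In 5 no chain had one, namely the receptors for IL-18, IL-5, IL-11, IL-31 and IL-23. At a limit of 500 bp, 6 complexes kept a window at every chain, and those for IL-10, interferon lambda and IL-17A did not. Il2rg, Il4ra, Il10rb and Il17ra each recur among the 9. No share for combinations of other genes was calculated, so the counts of complexes have no background and only describe these combinations.

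**Figure D3:**
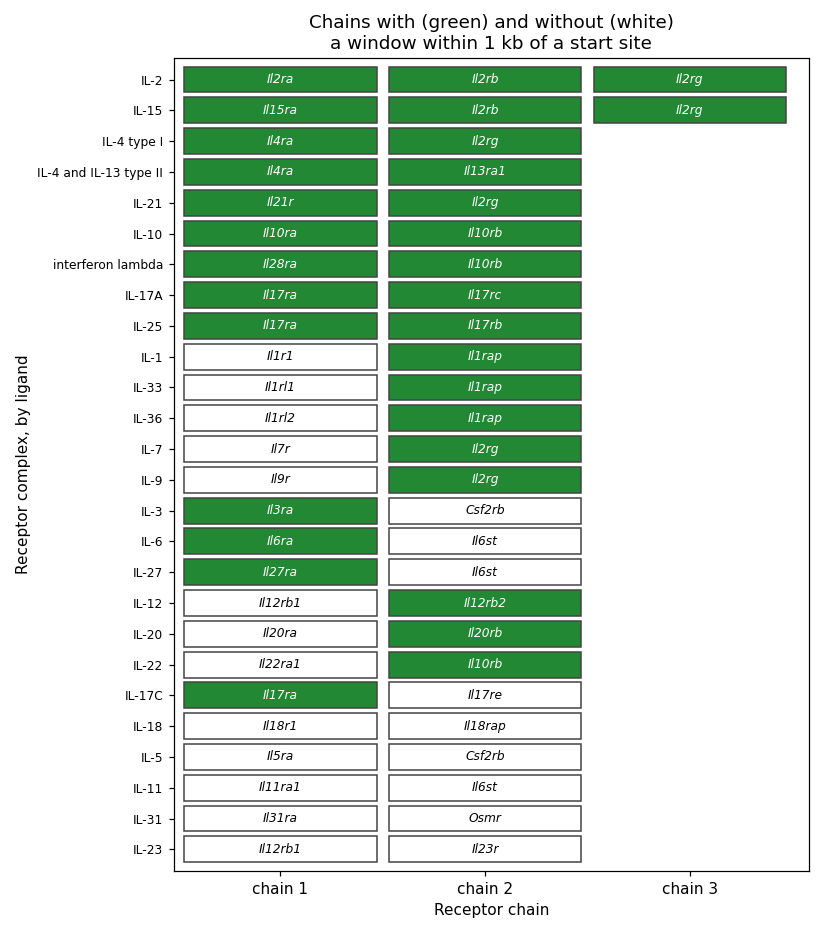
Chains (boxes, x axis) of 26 receptor complexes (y axis, by ligand), green for a gene with a promoter window and white for a gene without. In 9 complexes every chain is green and in 5 none is.

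Windows around the genes were then counted out to 50 kb of any start site. Of the 42 genes, 39 (92.9%, interval 80.5 to 98.5) had at least 1, beside 84.6% of all protein-coding genes. The median was 4.00 windows per gene, from 0 to 20, beside a median of 3.00. This order depended on the reach, since the medians were 1.00 and 1.00 within 10 kb and 5.00 beside 6.00 within 100 kb. At least 10 windows were found at 7 genes (16.7%, interval 6.97 to 31.4), beside 9.20% of all protein-coding genes. The 3 genes with 0 windows were Il18rap, Il11ra2 and Il20ra. Distance alone does not assign a window to a gene, so each window was also given to the protein-coding gene with the nearest start site. By that count 31 genes (73.8%, interval 58.0 to 86.1) had at least 1 window of their own, beside 63.6%, with a median of 2.00 beside 1.00.

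In all, 198 different windows lay within 50 kb of a receptor gene, of which 102 were nearest to a receptor gene and 96 nearest to another gene. A promoter of some annotated gene, protein-coding or not, held 70 of the 198 (35.4%, beside 26.6% of all 50000 windows). Of these, 27 were promoter windows of receptor genes and 43 of their neighbours. Introns held 62 (31.3% beside 34.0%), exons 7 (3.54% beside 3.64%) and space between genes 59 (29.8% beside 35.7%). The 198 windows were selected for lying within 50 kb of a start site, and the 50000 were not. That selection by itself favours promoters over space between genes. No shares were calculated for windows within 50 kb of other genes, so these differences are not read as a feature of receptor genes. The bodies of receptor genes held 66 windows. The 25 windows in reach of more than 1 receptor gene were mostly those of Il4ra and Il21r, neighbours on chromosome 7 that share 15.

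The genes with most windows differed in how many were their own. Il12rb1 had the most, 20, but 16 of these were nearest to other genes, among them Ifi30, Pik3r2, Mast3 and Arrdc2, and only 4 to Il12rb1. Those 4 lay 5707 and 3318 bp upstream and 6249 and 8337 bp downstream of a start site. By contrast, Il4ra had 17 windows, 11 of them its own, and Il17ra had 12 with 11 its own. Il21r had 18 with 9 its own, Il10rb 13 with 4, Il2rg 12 with 2, Il27ra 11 with 1, Il1rn 9 with 2 and Il17rc 8 with 2. Il11ra1 and Il17re, which encodes the receptor for IL-17C, had 7 each and none of their own. The 7 of Il11ra1 all lay at promoters of neighbouring genes.

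**Figure D4:**
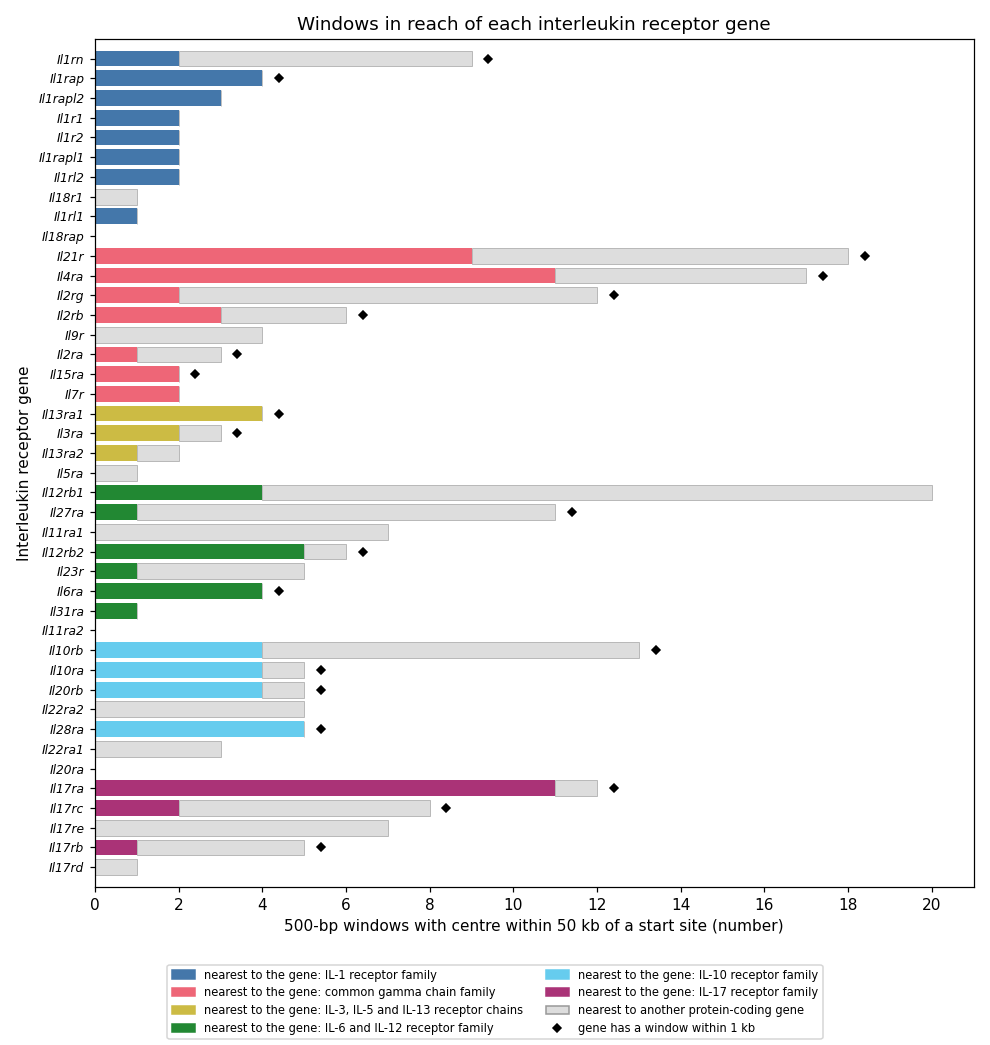
Number of windows in reach, meaning a centre at most 50 kb from any start site (x axis), for each of the 42 genes (y axis, grouped by family). Coloured parts are windows nearest to the gene itself, grey parts windows nearest to another protein-coding gene, and diamonds mark the 20 genes with a window within 1 kb; Il4ra and Il17ra have 11 windows of their own each.

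The windows of Il4ra (chr7:132695785-132722986) were spread over the gene. After the windows at the promoter, others were centred 1702, 2570, 3324 and 5246 bp downstream of a start site, 3 were found further on in introns and 2 beyond the end of the gene. Il17ra (chr6:120413215-120433745) had 3 windows between 9658 and 10543 bp upstream, windows at 3625, 4031, 7569 and 16318 bp in its introns, 1 in an exon at 20381 bp and 1 of its own past its end at 26444 bp. Il21r (chr7:132746943-132777084) had windows 2061, 14524 and 16740 bp upstream and 3330 and 4613 bp inside the gene, and 3 more of its own beyond its end. Of the 15 windows shared by Il4ra and Il21r, 9 were nearest to Il4ra and 6 to Il21r.

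The windows were searched on both strands for short words bound by factors that act downstream of these receptors or in the cells of the tumor. AP-1, the factor family of Jun and Fos, was searched as TGAGTCA. STAT factors, which carry the signal of most of these receptors to the nucleus, were searched as TTCNNNGAA and interferon regulatory factors (IRF) as GAAANNGAA. The word of RUNX factors of lymphocytes and other cells was TGTGGTT. PU.1, a factor of myeloid and B cells, had GAGGAAGT, other ETS factors CCGGAAGT and CEBP factors TTGCNNAA. The word of GATA factors was AGATAA. NF-kB was searched as GGGANTTTC, the insulator protein CTCF as CCACNAGGG and the epithelial GRHL factors as AACCGGTT. None of the words contains another, although matches of 2 words may overlap. A match describes letters and does not show that a factor was bound. The stretches shown are from promoter windows, or from windows nearest to the gene, with the word in capitals and the gene's direction as reading direction.
Il4ra, AP-1, chr7:132696558-132696644 (plus strand): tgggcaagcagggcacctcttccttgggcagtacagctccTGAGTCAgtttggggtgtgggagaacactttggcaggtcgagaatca
Il6ra, AP-1, chr3:89716359-89716445 (minus strand): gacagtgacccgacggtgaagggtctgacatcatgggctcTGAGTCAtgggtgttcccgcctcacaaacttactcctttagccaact
Il15ra, AP-1, chr2:11627269-11627338 (plus strand): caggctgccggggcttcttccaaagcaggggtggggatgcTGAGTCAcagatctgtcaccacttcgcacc
Il17rb, AP-1, chr14:30822140-30822208 (minus strand): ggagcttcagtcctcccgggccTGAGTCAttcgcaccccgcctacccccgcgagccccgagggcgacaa
Il1rn, AP-1, chr2:24201877-24201963 (plus strand): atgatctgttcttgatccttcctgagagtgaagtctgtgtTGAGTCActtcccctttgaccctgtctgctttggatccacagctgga
Il12rb2, STAT, chr6:67326257-67326345 (minus strand): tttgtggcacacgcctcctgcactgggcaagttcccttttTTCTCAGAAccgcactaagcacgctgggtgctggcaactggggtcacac
Il4ra, STAT, chr7:132697456-132697544 (plus strand): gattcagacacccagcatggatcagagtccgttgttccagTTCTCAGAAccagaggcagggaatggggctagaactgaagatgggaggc
Il17ra, STAT, chr6:120416616-120416704 (plus strand): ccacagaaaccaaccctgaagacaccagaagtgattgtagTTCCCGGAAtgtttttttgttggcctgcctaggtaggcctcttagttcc
Il27ra, PU.1, chr8:86566550-86566637 (minus strand): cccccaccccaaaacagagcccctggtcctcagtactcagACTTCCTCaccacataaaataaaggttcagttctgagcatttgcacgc
Il4ra, PU.1, chr7:132699176-132699263 (plus strand): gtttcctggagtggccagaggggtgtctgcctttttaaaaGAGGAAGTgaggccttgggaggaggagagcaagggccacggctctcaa
Il21r, PU.1, chr7:132745011-132745098 (plus strand): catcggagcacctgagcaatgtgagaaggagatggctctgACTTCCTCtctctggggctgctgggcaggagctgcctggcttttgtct
Il2rg, IRF, chrX:98462147-98462230 (minus strand): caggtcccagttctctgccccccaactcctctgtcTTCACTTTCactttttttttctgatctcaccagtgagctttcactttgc
Il13ra1, CTCF, chrX:33652258-33652346 (plus strand): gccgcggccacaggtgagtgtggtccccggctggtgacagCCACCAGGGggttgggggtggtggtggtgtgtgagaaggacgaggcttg
The first 5 carry the AP-1 word in promoter windows, and the sixth such window, of Il10rb, is not printed because its word lies in untranslated sequence. The STAT stretches are from the promoter of Il12rb2 and from introns of Il4ra and Il17ra. The 3 PU.1 stretches are those of the windows nearest to a receptor gene that hold this word: the promoter of Il27ra, an intron of Il4ra and the region upstream of Il21r. The last pair shows an IRF word in an intron of Il2rg and a CTCF word near the start of Il13ra1.

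Of the 27 promoter windows of receptor genes, 6 (22.2%) held the AP-1 word, beside 7.78% of the 13310 windows at promoters of annotated genes. That background, used for each word here, includes promoters of genes that are not protein-coding. CTCF words were in 3 (11.1% beside 3.04%), which are both promoter windows of Il6ra and a window of Il13ra1. IRF words were in 4 (14.8% beside 11.1%). STAT words were in 2 (7.41% beside 10.1%), at Il12rb2 and Il17rc, GATA words in 2 (7.41% beside 10.0%), and PU.1 and CEBP words in 1 each (3.70%, beside 4.21% and 13.9%). The RUNX, ETS, NF-kB and GRHL words were in none of the 27, beside 7.29%, 7.16%, 1.87% and 0.361%. With 27 windows, 1 window more or less moves such a share by 3.70 percentage points.

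The same words were counted over all 198 windows within 50 kb. AP-1 was in 28 (14.1% beside 13.5% of all 50000), STAT in 24 (12.1% beside 13.1%), IRF in 24 (12.1% beside 13.3%), CEBP in 35 (17.7% beside 17.3%) and RUNX in 21 (10.6% beside 11.6%). GATA was in 24 (12.1% beside 17.7%), CTCF in 11 (5.56% beside 2.70%), ETS in 8 (4.04% beside 2.49%), PU.1 in 7 (3.54% beside 4.96%), NF-kB in 3 (1.52% beside 1.99%) and GRHL in 0 (beside 0.212%). All 8 windows with the ETS word were nearest to another gene. Among the 102 windows nearest to a receptor gene, IRF words were in 18 (17.6% beside 13.3% of all 50000) and RUNX words in 15 (14.7% beside 11.6%). CTCF was in 7 (6.86% beside 2.70%) and AP-1 in 15 (14.7% beside 13.5%). Lower than in all windows were GATA in 13 (12.7% beside 17.7%), PU.1 in 3 (2.94% beside 4.96%), STAT in 13 (12.7% beside 13.1%) and CEBP in 17 (16.7% beside 17.3%). NF-kB was in 2 (1.96% beside 1.99%), and ETS and GRHL in none. A single intron window of Il17ra, 3625 bp from the start, held STAT, RUNX, IRF and CTCF words.

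Genes around the receptors were counted in the same way, to be read against 43.5% of all protein-coding genes and, since CpG counts differ, against 12.2%, 49.5% and 69.8% in the low, middle and high CpG classes. Of 40 genes for interleukins themselves, 7 (17.5%, interval 7.34 to 32.8) had a promoter window, namely Il7, Il9, Il11, Il12a, Il15, Il16 and Il17d. These genes had a median of 7.00 CpG at their starts. Genes of the TNF receptor superfamily with a symbol of Tnfrsf and a number had one in 5 of 21 entries (23.8%), and chemokine receptor genes in 7 of 20 (35.0%). Members of that superfamily under other symbols were not counted, and Tnfrsf22 was entered more than once. Downstream of the receptors, all 7 STAT genes and all 4 genes for feedback inhibitors of the SOCS family (Socs1, Socs2, Socs3 and Cish) had one, as did the 8 listed adaptors and kinases of IL-1 and IL-17 receptors, among them Myd88, Irak4 and Traf6. Of the Janus kinases, Jak1, Jak2 and Jak3 had one and Tyk2 did not. Of 10 shared or related receptor chains, 4 had one: Csf2ra, Lifr, Crlf2 and Sigirr. Together 26 of the 33 listed pathway genes (78.8%, interval 61.1 to 91.0) had a promoter window, at a median CpG count of 30.0. That median falls in the middle CpG class (at most 36 CpG), where 49.5% of all protein-coding genes had one, beside 69.8% in the high class. The list mixes groups of unlike CpG count, with medians from 25.0 (SOCS genes) to 36.0 (STAT genes), so no single class is its background. It was also chosen with earlier results known, so the interval serves as no test. The part of CpG content in the 78.8% was not tested.

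Which cells contributed a window cannot be read from the pooled list, but markers of several cell types had promoter windows too. Per the paper, the cells analysed were EpCAM+ or CD45+. CD45+ cells made up a larger part of them than of the stained tumor, so the list does not picture the whole tumor. Of the epithelial markers 4 of 8 had one (Cdh1, Elf3, Muc1 and Cldn4, but not Epcam), of leukocyte markers 5 of 6 (not Ptprc, the gene for CD45), of T and NK cell markers 4 of 4, of myeloid markers 2 of 4, of fibroblast markers 3 of 3, and of B cell and endothelial markers 0 of 4 and 0 of 3. These short lists are to be read against 43.5% of all protein-coding genes, and the CpG counts of the markers were not compared. The part of each cell type in the windows of the receptor genes was not tested. The list also kept unequal shares of the called peaks, 41.5% to 51.8% on chromosomes 7, 8, 9 and X beside 23.6% to 26.5% on the others. On those 4 chromosomes 7 of 11 receptor genes had a promoter window (63.6%, interval 30.8 to 89.1, beside 45.6% of all protein-coding genes there). On the other chromosomes 13 of 31 did (41.9%, interval 24.5 to 60.9, beside 42.8%). Il4ra, Il21r, Il12rb1, Il2rg and Il27ra, which are 5 of the 7 genes with at least 10 windows, lie on these 4 chromosomes. Il10rb on chromosome 16 and Il17ra on chromosome 6 do not.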

How the data were processed

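The deposited values are positions (unit other): 1 list of 50000 windows of 500 bp, which the authors made from all wells together. Per the labels and the study's methods, the authors aligned paired reads using Bowtie2 2.1.0 (mm9) and took out duplicates using Picard 1.79. Uniquely mapped reads outside the mitochondrial genome went into MACS2 (a version number was not given in the sources used here). Summits passed at q 0.05, and the windows of lowest q were retained. The list gives no score, so its depth is unknown and a stricter threshold could not be applied.

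Windows were placed by their centre on the GENCODE vM1 annotation and the NCBIM37 genome sequence (mm9), counting from 1, with Python 3.11.15, numpy 2.4.6, scipy 1.17.1 and matplotlib 3.10.9. Promoter windows lay within 1 kb, and windows in reach within 50 kb, of any start site. Called peaks per chromosome were taken from the running number in the peak names and are a lower bound. Intervals are exact binomial (Clopper-Pearson) at 95%, treat genes as independent draws and cover counting error only. Described with values are the genes with a promoter window, the 10 with most windows (ties kept) and those with 0; related genes and markers come from lists. Sequences with a word follow the same rule for windows; those shown for CpG were chosen after values had been seen. The receptor genes and all lists were chosen with earlier results of these data known. Window placement and word search were tested on simulated data, where 3200 of 3200 planted items were recovered. No test over samples was possible with 1 pooled list. The alternatives changed the promoter distance, the reach, the transcripts, the assignment to genes, overlapping windows, the chromosomes and the span searched for words.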

Additional observations from a re-analysis of the deposited data

How the results depend on the processing

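The number of receptor genes with a promoter window was 16 to 20 with a limit of 500 bp or 2 kb, any base of the window in place of its centre, protein-coding transcripts, 1 start site per gene, 1 window per overlapping group, or without Il1rn, Il1rapl1 and Il1rapl2. At 500 bp it was 17 genes, beside 40.1% of all protein-coding genes, and at 2 kb 20 genes, beside 47.0%. For the other settings just named, no share of all protein-coding genes is given. Without chromosomes 7, 8, 9 and X it was 13 genes, with 114 windows within 50 kb. A reach of 10 kb left 70 windows and a median of 1.00 per gene, the same median as over all protein-coding genes. Within 100 kb there were 289 windows and a median of 5.00, below the 6.00 of all protein-coding genes, so the order of the medians at 50 kb turned. Counting windows for their nearest gene only left 102 windows and a median of 2.00. These falls follow from fewer chromosomes, a shorter reach or fewer windows counted. When words were sought in the central 200 bp of the 198 windows in place of the whole 500 bp, AP-1 was in 15, STAT in 8, ETS in 5, PU.1 in 3, RUNX in 12, CEBP in 10, NF-kB in 1, GATA in 8, IRF in 13 and CTCF in 2. No share over all windows is given for that shorter span, so these counts cannot be read as above or below a background. In the windows nearest to a receptor gene, AP-1 was in 15, STAT in 13, ETS in 0, PU.1 in 3, CEBP in 17, GATA in 13 and CTCF in 7. The count of CpG at the start site with most CpG, and that of low-CpG genes with windows at the 5′ end only, were chosen after seeing the data. No paired analysis was possible because the list pools all wells.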

Other observations

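Outside the promoters, windows of some receptor genes stood in groups. The 3 windows upstream of Il17ra, at chr6:120402422-120402921, chr6:120402998-120403497 and chr6:120403307-120403806, each held a RUNX word, and the pair closest to the gene overlap and share the same one. Both windows of Il7r also held a RUNX word, at 0 and 6 CpG. The median CpG count was 18.0 in the promoter windows of receptor genes and 6.00 in the windows within 50 kb that lay at no promoter. Some windows at no promoter held many more, such as a window nearest to Il21r with 26 CpG and a window nearest to Il1r2 with 19. Il12rb1 had 35, 20 and 31 CpG in 3 of its own 4 windows although none was within 1 kb of a start site. One of these, 3318 bp upstream, held an NF-kB word and lay outside annotated genes.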
